A study of Mus musculus with 23 samples.

Results

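Rab GTPases are small switch proteins that mark the membranes of a cell's internal compartments and direct vesicles between them. The members described here are the genes whose symbol is Rab followed by a number, with or without a final letter or paralog suffix, on probe sets assigned to 1 gene. There were 59 such genes, on 62 probe sets, among 19938 named genes. Proteins that bind or regulate Rabs are not members and were taken as separate lists. Of the 59 genes, 44 were bright enough to test, among 12157 genes tested in all.

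The arrays were hybridised with RNA from dendritic cells of mouse spleen, which sense microbes and present antigen to T cells. Conventional type 1 cells (cDC1), conventional type 2 cells (cDC2) and plasmacytoid cells (pDC) were sorted from wild-type mice (WT) and from Bcl6cKO mice (cKO), in which Bcl6, the gene of a transcriptional repressor, is conditionally deleted. WT groups had 3 arrays each, the cKO cDC1 group had 4, and the cKO cDC2 and cKO pDC groups had 5 each. The Cre driver and the age of the mice are not given in the sources used here, nor is it said whether arrays of a group came from separate mice, so p-values measure the spread between arrays.

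A Rab is active when bound to GTP and inactive when bound to GDP. Exchange factors (GEFs) load GTP, GTPase-activating proteins (GAPs) of the TBC family end the active state, and GDP dissociation inhibitors (GDIs) take the prenylated, inactive Rab off the membrane. Active Rabs recruit effectors such as tethers, motors and scaffolds. Dendritic cells depend on such traffic to take up, degrade and present antigen, and Rab43 is known for its part in cross-presentation by cDC1.

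Summed markers went with the cell type labels, though not every single marker did. The 10 cDC2 markers summed to 6297 to 7675 in WT cDC2, 432 to 459 in WT cDC1 and 4477 to 5689 in WT pDC. Of them, Cd209a, Tlr7 (10.04 and 8.59), Clec10a (8.59 and 5.78) and Irf4 had higher means in WT pDC than in WT cDC2. The others were lower in WT pDC. Irf8, a cDC1 marker, had a mean of 11.58 in WT pDC and 11.46 in WT cDC1. Xcr1, a chemokine receptor of cDC1, had a mean log2 intensity of 9.70 in WT cDC1 and 4.52 in WT cDC2, and Siglech, a pDC receptor, had 12.42 in WT pDC and 5.48 in WT cDC1. The Bcl6 probe set did not show the deletion: its cKO minus WT difference was 0.96 in cDC1, 0.69 in cDC2 and -0.15 in pDC on the log2 scale, and none of these was called (smallest limma adjusted p = 0.598). Where its probes lie relative to the deleted part is not known here, so it neither checks nor contradicts the labels. The arrays fell into 3 sets by their median intensity, with medians of 29.3 to 31.0 on 8 arrays, 31.6 to 34.3 on 6 arrays and 38.9 to 41.2 on 9 arrays, and each set held arrays of all 6 groups. Within the third set, cKO arrays of 1 group were very alike: the closest pair had a correlation of 0.995. The first WT array of each cell type differed from the rest in Xist. Its log2 intensity there was 10.90 in cDC1, 11.28 in cDC2 and 11.89 in pDC, and at most 5.07 on every other array. No cKO array was high, so this difference is partly confounded with genotype. Fits without the 3 high-Xist arrays keep only replicates 2 and 3 of each WT group.

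The promoters of 3 Rabs whose levels separated cell types without overlap are shown. Other Rabs, such as Rab7b and Rab43, also did so, and their promoters are not printed. RefSeq gave a window of 250 bases before to 50 after the start for 48 of the 59 genes, in build GRCm38.p6. Rab32 lies on chr10:10558158-10558457 (minus strand), Rab31 on chr17:65772703-65773002 (minus strand) and Rab33b on chr3:51483716-51484015 (plus strand). Capitals mark matches on either strand to 1 of 7 short patterns. The PU.1-type pattern GAGGAAGT was added after the Rab32 window had been read. The sequences are written 5′ to 3′ on the strand of the gene.
Rab32: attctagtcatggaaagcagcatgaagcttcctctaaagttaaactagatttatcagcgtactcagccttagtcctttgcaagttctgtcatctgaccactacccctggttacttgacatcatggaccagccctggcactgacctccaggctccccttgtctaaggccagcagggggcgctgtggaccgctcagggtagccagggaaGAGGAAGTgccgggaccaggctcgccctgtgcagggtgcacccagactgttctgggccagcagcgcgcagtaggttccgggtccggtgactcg
Rab31: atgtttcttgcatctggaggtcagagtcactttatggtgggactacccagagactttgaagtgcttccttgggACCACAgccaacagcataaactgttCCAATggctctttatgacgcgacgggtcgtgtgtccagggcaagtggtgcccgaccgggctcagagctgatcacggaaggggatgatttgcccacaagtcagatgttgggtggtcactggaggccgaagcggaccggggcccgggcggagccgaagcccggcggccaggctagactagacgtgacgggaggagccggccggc
Rab33b: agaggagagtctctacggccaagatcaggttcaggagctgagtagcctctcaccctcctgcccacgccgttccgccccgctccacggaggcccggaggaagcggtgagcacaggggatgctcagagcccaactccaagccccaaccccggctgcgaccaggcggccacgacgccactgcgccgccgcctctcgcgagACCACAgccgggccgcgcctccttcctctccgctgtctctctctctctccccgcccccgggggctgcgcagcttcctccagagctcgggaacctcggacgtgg
Rab32 holds GAGGAAGT, a pattern found in 3.20% of all 32851 windows and in 2 of 60 Rab windows. Rab31 and Rab33b hold the RUNX-type pattern TGTGGT, here as its reverse complement, which is in 16.8% of all windows and 10 of 60 Rab windows. Rab31 also holds CCAAT, found in 37.4% of all windows and 26 of 60 Rab windows. The other patterns were the interferon-response core (3.44% of all windows, 1 of 60 Rab windows), the ETS-IRF composite (2.72%, 1 of 60), TTCNNNGAA (8.30%, 5 of 60) and CACCTG (20.2%, 10 of 60), and none of these lay in the 3 windows shown. A match is a string of letters and not a measured site.

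The 15 Rab genes not tested were at or below the array medians on nearly all arrays. Rab13 passed the median on 2 arrays and Rab3a on 1. Rab15, Rab17, Rab18, Rab26, Rab27b, Rab33a, Rab34, Rab39, Rab39b, Rab3b, Rab3c, Rab40b and Rab42 passed it on 0 arrays. Of the 44 tested genes, 11 belong to the endoplasmic reticulum and Golgi group, 10 to early endosomes and phagosomes, 8 to recycling and polarized delivery, 6 to late endosomes and lysosomes, 6 to secretory granules and lysosome-related organelles, and 3 to none of these. Levels are log2 intensities and are compared only within a gene.

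More Rab genes were called between cell types than between genotypes, as was so for all genes. A gene is called here where the limma p, adjusted over all 12157 genes by the Benjamini-Hochberg method, was below 0.05. In WT cells, 4 Rabs were higher in cDC1 than in cDC2 and 0 were lower, where 6.05% of all genes were called, 3.02% higher and 3.04% lower. Between WT cDC1 and WT pDC, 7 were higher in cDC1 and 2 were lower, where 13.5% of all genes were called, 8.37% higher and 5.14% lower. Between WT cDC2 and WT pDC, 6 were higher in cDC2 and 2 were lower, where 12.7% of all genes were called, 7.93% higher and 4.80% lower. The median Rab difference was 0.17, 0.14 and -0.01 on the log2 scale in these 3 comparisons, and the median of all genes was 0.04, 0.05 and 0.02. The 3 WT comparisons share arrays.

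WT replicate numbers paired the arrays across cell types. With the replicate number as a block, 8 Rabs were called between WT cDC1 and WT cDC2 (7 higher, 1 lower), where the same block called 9.53% of all genes, and 15 between WT cDC1 and WT pDC (12 higher, 3 lower), where it called 19.7%. Leaving out 1 array gave between 1 and 4 calls for WT cDC1 against WT cDC2. Rab7b was the 1 call left without replicate 3 of WT cDC1 or without replicate 2 of WT cDC2, and 2 Rabs were called without replicate 1 of WT cDC1.

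**Figure D1:**
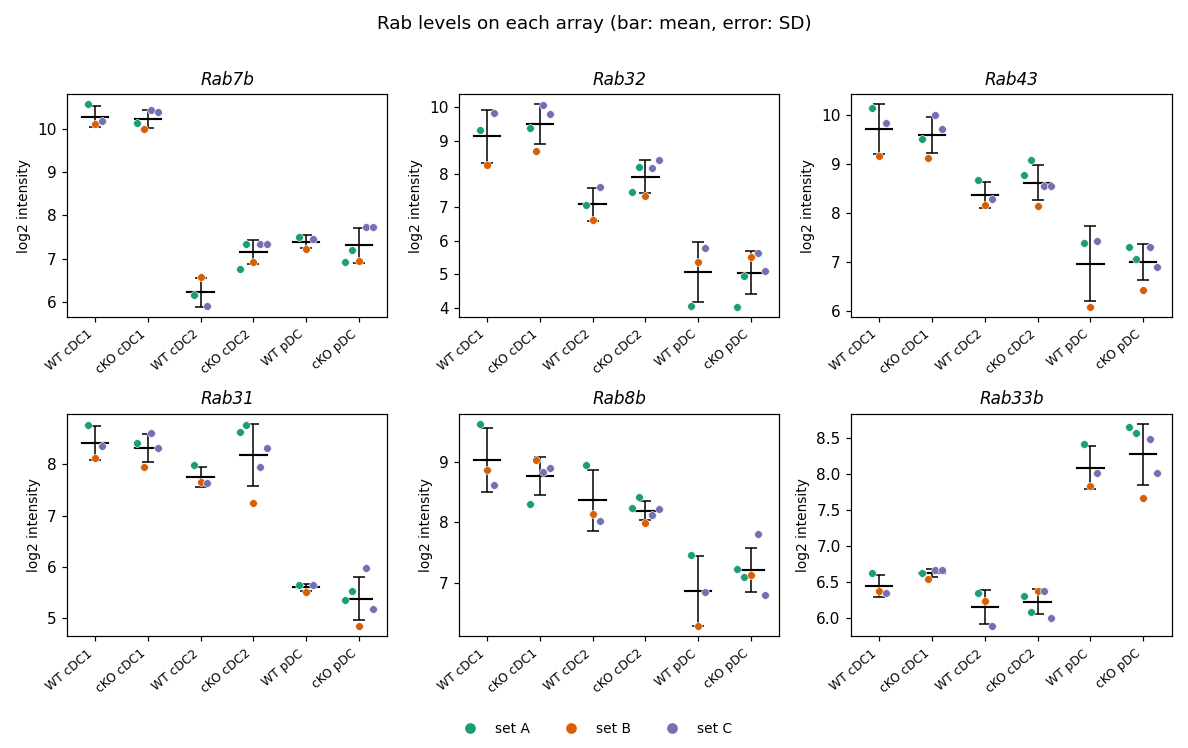
Log2 intensity (vertical axis) of 6 Rab genes on each of 23 arrays, by group; points are arrays coloured by the array sets A, B and C, bars are group means and error bars are SDs. Rab7b, Rab32, Rab43, Rab31 and Rab8b have their highest group means in cDC1 and Rab33b in pDC.

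Among late endosomal and lysosomal Rabs, Rab7b, which acts in transport between late endosomes and the trans-Golgi network, separated the cell types most clearly. Its log2 intensity was 10.56, 10.10 and 10.18 in WT cDC1. It was 6.16, 6.58 and 5.92 in WT cDC2. In WT pDC it was 7.51, 7.23 and 7.44. The 3 WT groups did not overlap, with cDC1 highest and cDC2 lowest. The difference of cDC1 from cDC2 was 4.06 ± 0.25 (SE, limma adjusted p = 1.72e-10), a 16.7-fold difference, and that from pDC was 2.88 ± 0.25 (adjusted p = 1.1e-08). WT cDC2 was lower than WT pDC by a log2 difference of -1.17 ± 0.25 (adjusted p = 0.00206).

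Rab24, a Rab linked to autophagosomes, was lower in WT cDC1 than in WT pDC. Its log2 intensity was 7.72, 8.13 and 8.47 in WT cDC1. In WT pDC it was 9.23, 8.88 and 10.32, with no overlap between the groups. The difference was -1.37 ± 0.36 (SE, adjusted p = 0.00972). The call was lost without replicate 1 of WT cDC1 or replicate 3 of WT pDC, with a largest adjusted p of 0.0812. It was also lost with the compared arrays alone and without the 3 high-Xist arrays. The other 4 tested members of this group, Rab7, Rab9, Rab9b and Rab29, were not called in any WT comparison.

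Rab32 and Rab38, paralogs that help build lysosome-related organelles such as melanosomes, were both low in pDC. Rab32 had a log2 intensity of 9.32, 8.27 and 9.81 in WT cDC1. It was 7.07, 6.63 and 7.61 in WT cDC2. In WT pDC it was 4.05, 5.37 and 5.77, so the 3 groups formed a descending order with no overlap. WT cDC1 exceeded WT cDC2 by 2.03 ± 0.48 (SE, adjusted p = 0.00862) and WT pDC by 4.07 ± 0.48 (adjusted p = 1e-06), and WT cDC2 exceeded WT pDC by 2.04 ± 0.48 (adjusted p = 0.00441). The call against cDC2 was lost without replicate 3 of WT cDC1 or replicate 2 of WT cDC2 (largest adjusted p = 0.0705). Without the 3 high-Xist arrays it was also lost, as was the call of cDC2 against pDC (adjusted p = 0.0658 and 0.115). The pDC level lies near the array medians, so the size of its differences is uncertain.

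Rab38 had a log2 intensity of 6.05, 5.91 and 6.67 in WT cDC1. It was 6.18, 5.84 and 6.19 in WT cDC2 and 4.08, 4.73 and 5.31 in WT pDC. The 2 conventional groups overlapped, and both lay above pDC on every array. The difference from pDC was 1.50 ± 0.36 for cDC1 (SE, adjusted p = 0.00452) and 1.36 ± 0.36 for cDC2 (adjusted p = 0.0109). The cDC2 call was lost without replicate 1 of WT pDC (adjusted p = 0.0836), and the pDC level lies near or below the array medians. Both calls were lost without the 3 high-Xist arrays (adjusted p = 0.0807 for cDC1 and 0.230 for cDC2). The other 4 tested members of this group, Rab3d, Rab27a, Rab37 and Rab44, were not called in a WT comparison.

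Of the endoplasmic reticulum and Golgi Rabs, Rab43 was highest in cDC1 and Rab33b in pDC. Rab43 had a log2 intensity of 10.15, 9.17 and 9.84 in WT cDC1. It was 8.68, 8.17 and 8.29 in WT cDC2 and 7.39, 6.08 and 7.42 in WT pDC. The groups again descended without overlap. WT cDC1 exceeded WT cDC2 by 1.34 ± 0.34 (SE, adjusted p = 0.0161) and WT pDC by 2.76 ± 0.34 (adjusted p = 2.36e-06), and WT cDC2 exceeded WT pDC by 1.42 ± 0.34 (adjusted p = 0.00576). The call against cDC2 was lost without any 1 of replicates 1 and 3 of WT cDC1 and 2 and 3 of WT cDC2 (largest adjusted p = 0.115), and that of cDC2 against pDC without replicate 2 of WT pDC (adjusted p = 0.0566). The call against cDC2 was also lost without the 3 high-Xist arrays (adjusted p = 0.118). With the compared arrays alone, that of cDC2 against pDC was lost (adjusted p = 0.0604).

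Rab33b, a Golgi Rab that also binds the autophagy protein Atg16l1, ran the other way. WT cDC1 arrays read 6.62, 6.37 and 6.34 on the log2 scale. It was 6.34, 6.23 and 5.88 in WT cDC2 and 8.42, 7.83 and 8.02 in WT pDC. All pDC arrays lay above all conventional arrays. The difference from pDC was -1.64 ± 0.24 for cDC1 (SE, adjusted p = 1.71e-05) and -1.94 ± 0.24 for cDC2 (adjusted p = 2.36e-06). The other 9 tested members of the group were not called in a WT comparison.

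Rab31, which carries cargo between the trans-Golgi network and endosomes, was the 1 early endosomal Rab of 10 tested that was called in a WT comparison. In WT cDC1 its log2 intensity was 8.77, 8.12 and 8.36. It was 7.98, 7.65 and 7.63 in WT cDC2 and 5.65, 5.52 and 5.64 in WT pDC. Both conventional groups lay well above pDC, by 2.81 ± 0.32 for cDC1 (SE, adjusted p = 5.7e-07) and 2.15 ± 0.32 for cDC2 (adjusted p = 2.92e-05). The Rab5 genes, which drive early endosome fusion, were not called in a WT comparison.

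Recycling and polarized delivery Rabs gave 3 called genes of 8 tested in the WT comparisons. Rab8b, a regulator of delivery to the plasma membrane, had a log2 intensity of 9.63, 8.87 and 8.61 in WT cDC1. It was 8.95, 8.13 and 8.01 in WT cDC2 and 7.45, 6.28 and 6.85 in WT pDC. The conventional groups overlapped and pDC lay below both, by 2.17 ± 0.32 against cDC1 (SE, adjusted p = 2.18e-05) and 1.50 ± 0.32 against cDC2 (adjusted p = 0.00175).

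Rab8a, its close paralog, had a log2 intensity of 9.36, 8.87 and 8.90 in WT cDC2. It was 8.46, 6.40 and 8.09 in WT pDC, where replicate 2 was far below the others. The difference was 1.39 ± 0.43 (SE, adjusted p = 0.0318), and it fell to 0.77 without replicate 2 of WT pDC, where the call was lost. Leaving out any 1 of the WT cDC2 arrays also ended the call, with a largest adjusted p of 0.263 over all arrays left out.

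Rab10, which delivers vesicles to the plasma membrane, had the smallest called difference of the WT comparisons. In WT cDC1 its log2 intensity was 10.05, 9.99 and 10.16. It was 9.27, 9.05 and 9.42 in WT cDC2 and 9.29, 9.07 and 9.65 in WT pDC, so cDC1 lay above both other groups. The difference was 0.82 ± 0.22 from cDC2 (SE, adjusted p = 0.0250) and 0.73 ± 0.22 from pDC (adjusted p = 0.0285). The call against cDC2 was lost when any 1 of 5 of the 6 arrays was left out, the exception being replicate 3 of WT cDC2 (largest adjusted p = 0.122). That against pDC was lost in the same way, the exception being replicate 3 of WT pDC (largest adjusted p = 0.135). Both Rab10 calls were also lost with the compared arrays alone and without the 3 high-Xist arrays.

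The same comparisons in cKO cells, with other arrays, gave 7 higher and 0 lower Rabs for cDC1 against cDC2 (8.95% of all genes called, with 486 of 12157 higher and 602, or 4.95%, lower). For cDC1 against pDC there were 10 higher and 3 lower (20.4% of all genes, 12.5% higher and 7.90% lower), and for cDC2 against pDC 6 higher and 2 lower (20.8% of all genes, 13.5% higher and 7.27% lower). All 4 Rabs called between WT cDC1 and WT cDC2 were called in the same direction in cKO cells. With arrays of 1 group and set averaged, the cKO calls of Rab10, Rab32 and Rab43 were lost there and that of Rab7b was kept. For cDC1 against pDC 8 of 9 were, the exception being Rab24, and for cDC2 against pDC 6 of 8 were, the exceptions being Rab7b and Rab8a. Over all genes called in WT, these shares were 75.1%, 85.7% and 84.9%.

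Rab7b kept its place at the top in cKO cDC1, with log2 intensities of 10.13, 9.98, 10.43 and 10.37. Rab32 in cKO cDC1 was 9.39, 8.69, 10.06 and 9.80, and in cKO pDC it was 4.02, 4.96, 5.52, 5.64 and 5.11. Rab32 therefore differed by 4.43 ± 0.39 (SE, adjusted p = 6.78e-09) between these groups, and Rab7b by 2.93 ± 0.21 (adjusted p = 1.77e-10). Rab30, a Golgi Rab, was called in cKO cells and not in WT cells: the cDC1 minus cDC2 difference was 2.72 ± 0.52 (adjusted p = 0.00077), with no overlap. Rab19 (1.26 ± 0.28, adjusted p = 0.00421) and Rab11a (1.10 ± 0.32, adjusted p = 0.0323), a marker of recycling endosomes, were also called there. The Rab11a call was lost with 5 of the single arrays left out (largest adjusted p = 0.110).

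Against pDC, the cKO calls with no WT counterpart in cDC1 were Rab30 (2.41 ± 0.52, SE), Rab19 (1.43 ± 0.28) and Rab11a (1.15 ± 0.32), which were higher, and Rab6b (-1.03 ± 0.29) and Rab27a (-0.58 ± 0.16), which were lower. In cDC2 they were Rab4a, a Rab of early endosomal recycling (0.92 ± 0.25, adjusted p = 0.00992), and Rab6b, a Golgi Rab (-0.95 ± 0.27, adjusted p = 0.0129). Rab4a exceeded the array median on 4 arrays, all of cDC2, so it passed the filter only through the cell type where it is high. Its mean in cKO pDC, 4.28, lies below the array medians, so its call and the size of its difference are uncertain. The calls of Rab4a and of Rab6b in both comparisons were lost with like arrays averaged (adjusted p = 0.162, 0.0700 and 0.145). Averaging also ended the cKO calls of Rab10, Rab11a, Rab19, Rab32 and Rab43 for cDC1 against cDC2. It ended those of Rab10, Rab11a and Rab38 for cDC1 against pDC and that of Rab8b for cDC2 against pDC. A call in 1 genotype and not in the other is no test of a difference between them; that test is given with the genotype results.

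Over the 44 tested Rabs, the cell type with the highest mean was the same in WT and cKO cells for 31 (70.5%), close to the 68.3% of all tested genes. In WT cells it was cDC1 for 21 Rabs (47.7%), cDC2 for 7 (15.9%) and pDC for 16 (36.4%), against 36.5%, 28.8% and 34.7% of all genes. The gap between the highest and lowest cell type mean had a median of 0.73 on the log2 scale for Rabs in WT cells, and 0.45 for all genes, and 14 Rabs (31.8%) had a gap above 1, as did 19.6% of all genes.

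**Figure D2:**
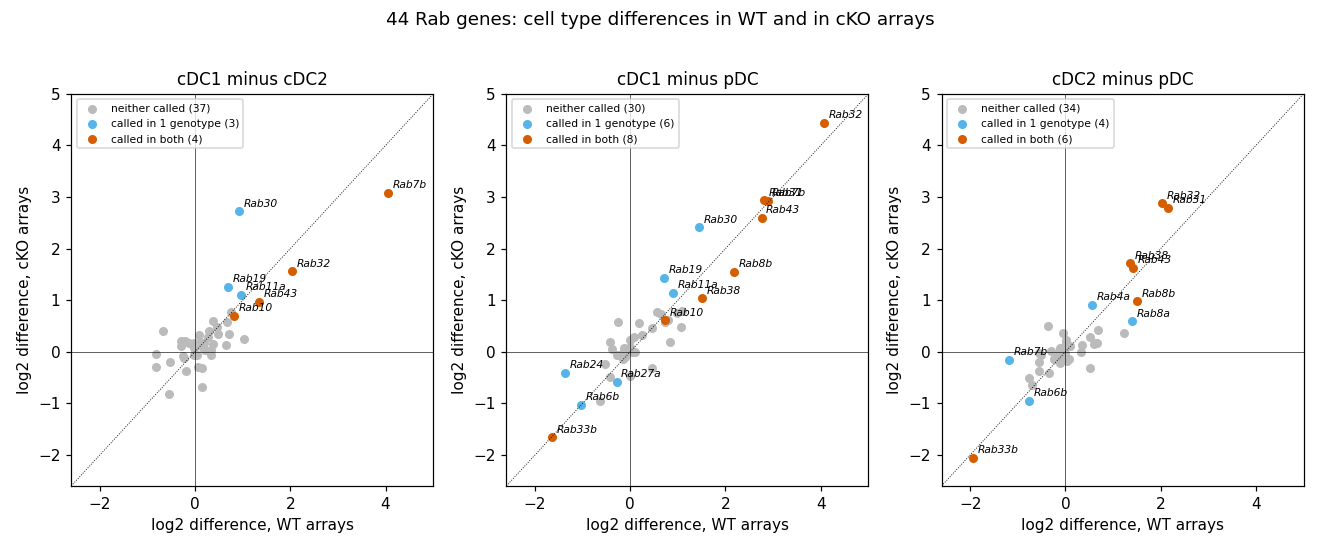
Log2 difference between 2 cell types for each of 44 Rab genes in WT arrays (horizontal axis) and in cKO arrays (vertical axis), 1 panel per pair of cell types; colours give the genotypes in which a gene was called and the dotted line marks equal differences. Rab7b lies farthest right in the cDC1 minus cDC2 panel, at 4.06 in WT and 3.08 in cKO cells.

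Few Rabs were called between genotypes, as were few of all genes. In cDC1, 0 of 44 Rabs were called (0.831% of all genes), and 1 had an unadjusted p below 0.05, as did 3.28% of all genes. In cDC2, 1 rose and 0 fell (1.56% of all genes, 1.16% higher and 0.403% lower). There, 5 had an unadjusted p below 0.05, as did 6.50% of all genes. In pDC, 0 were called (0.0329% of all genes), and 1 had an unadjusted p below 0.05, as did 1.99% of all genes. The median cKO minus WT difference of the Rabs was 0.09 in cDC1, 0.11 in cDC2 and 0.03 in pDC, and that of all genes was 0.06, 0.07 and 0.05. In cDC2 the lowest end of any Rab's 95% interval was -2.74 and the highest end of any was 1.92 on the log2 scale. These ends belong to different genes, so they are not the interval of 1 Rab. The sizes of single changes are imprecise, and a Rab that was not called may still have changed.

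**Figure D3:**
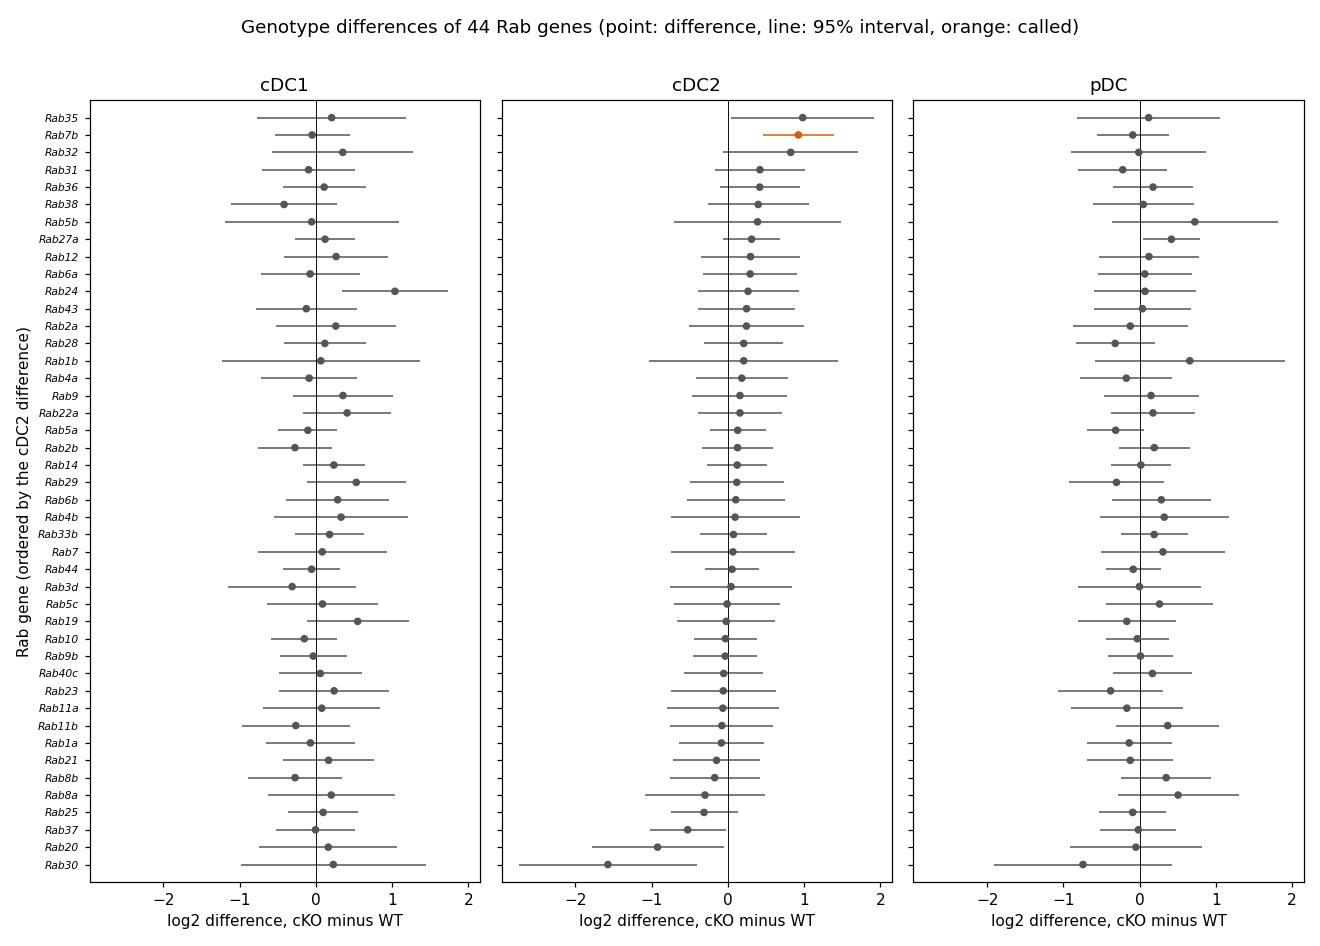
Log2 difference of cKO minus WT (horizontal axis) for 44 Rab genes in cDC1, cDC2 and pDC, with 95% intervals from limma; genes are ordered by their cDC2 difference and a called gene is orange. Rab7b in cDC2 is the 1 called gene, at 0.93, and Rab30 has the lowest cDC2 value, at -1.57.

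Rab7b was the called gene. In WT cDC2 its log2 intensity was 6.16, 6.58 and 5.92, and in cKO cDC2 it was 6.77, 7.35, 6.93, 7.34 and 7.35. The groups did not overlap, and the rise was 0.93 ± 0.23 (SE, adjusted p = 0.0364), or 1.90-fold. Within the 3 array sets the difference was 0.89, 0.35 and 1.43. The call rests on a margin that several choices remove: it was lost without any 1 of replicates 1 and 3 of WT cDC2 and 2, 4 and 5 of cKO cDC2 (largest adjusted p = 0.271), and with arrays of 1 group and set averaged (0.89, adjusted p = 0.171). In cDC1, where Rab7b was already high, the cKO minus WT difference was not called.

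Other cells' markers were set beside that rise. The 10 cDC1 markers had a summed intensity of 3698 to 4174 in WT cDC2 and 2694 to 4803 in cKO cDC2, with 2 of 10 called higher. Xcr1 stayed at a mean log2 intensity of 4.52 in WT and 4.50 in cKO cDC2, below the array medians. Clec9a was at 6.86 and 6.99, while Naaa was at 8.41 and 9.51 and Cd36 at 4.33 and 5.89. Wdfy4 was lower in cKO cDC2, at 11.11 in WT and 10.46 in cKO. Red pulp macrophage markers summed to 562 to 1141 in WT cDC2 and 676 to 1174 in cKO cDC2, with 1 of 10 called, higher (Cd163), and the defining marker Spic was at 5.99 and 7.14. Monocyte and neutrophil markers summed to 412 to 2566 and 492 to 2383, with 1 of 9 called higher, Ccr2 (6.05 and 7.99), and 1 lower, Csf3r. T and NK cell markers summed to 516 to 663 in WT cDC2 and 788 to 1152 in cKO cDC2, with 0 of 6 tested called. Their part in the Rab7b value was not tested.

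Rab30 had the next smallest p in cDC2 and was not called. Its log2 intensity was 7.44, 7.25 and 8.32 in WT cDC2, and 5.16, 6.02, 6.04, 6.43 and 6.85 in cKO cDC2. The groups did not overlap, and the difference was -1.57 ± 0.56 (SE, adjusted p = 0.314). Rab20, which acts on maturing phagosomes, was at 6.79, 7.79 and 8.21 in WT cDC2 and 6.23, 5.96, 6.34, 7.45 and 7.39 in cKO cDC2. These groups overlapped, with a difference of -0.92 ± 0.42 (adjusted p = 0.670). With the array set as a term both passed the threshold, and so did Rab37, as given among the processing results.

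In cDC1 the smallest p belonged to Rab24. Its log2 intensity was 7.72, 8.13 and 8.47 in WT cDC1 and 8.97, 8.80, 9.44 and 9.35 in cKO cDC1. The groups did not overlap, but the difference of 1.04 ± 0.33 (SE) was not called (adjusted p = 0.341). Replicate numbers paired the arrays of these 2 groups, and a fit of them alone with the replicate as a block called Rab24. The cDC2 markers summed to 432 to 459 in WT cDC1 and 1157 to 1366 in cKO cDC1. Sirpa had means of 6.26 and 8.53 and Cd209a of 5.57 and 8.78, while Irf4, Clec4a4, Cx3cr1 and S100a4 were lower in cKO cDC1. Rab24 had a mean of 8.92 in WT cDC2 and 8.10 in WT cDC1. The part of these markers' cells in the Rab24 value was not tested. Rab29, which recruits the kinase Lrrk2 to membranes, differed by 0.53 ± 0.31 and Rab19 by 0.55 ± 0.32, neither called. Rab29 was at 7.45, 7.47 and 7.84 in WT cDC1 and 7.85, 7.90, 8.44 and 8.28 in cKO cDC1, so no array overlapped, though the closest were at 7.84 and 7.85. Rab19 was at 5.90, 6.04 and 6.80 in WT cDC1 and 6.26, 6.26, 7.46 and 7.19 in cKO cDC1, with overlap. Its difference was 0.82 without replicate 3 of WT cDC1 and 0.33 without replicate 3 of cKO cDC1.

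In pDC the 3 smallest p belonged to Rab27a, which docks secretory lysosomes, Rab5a and Rab5b, and all 3 had overlapping groups. Rab27a was at 6.55, 6.19 and 6.46 in WT pDC and 6.74, 6.91, 6.94, 7.03 and 6.46 in cKO pDC, a difference of 0.42 ± 0.18 (SE). Rab5a was at 7.87, 7.79 and 8.42 in WT pDC and 7.79, 7.79, 7.58, 7.83 and 7.56 in cKO pDC. Its difference was -0.32 ± 0.18, and it was -0.12 without replicate 3 of WT pDC. The third WT array lay above all the others. Rab5b was at 9.01, 6.44 and 8.14 in WT pDC and 9.33, 9.20, 7.80, 8.41 and 8.19 in cKO pDC. Its difference of 0.72 ± 0.53 was 0.0096 without replicate 2 of WT pDC and 1.30 without replicate 1.

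Whether the genotype difference itself differed between cell types was tested in the same fit. Of 44 Rabs, 0 were called for cDC1 minus cDC2 (0.280% of all genes), for cDC1 minus pDC (0.329%) or for cDC2 minus pDC (0.485%). The numbers with an unadjusted p below 0.05 were 2, 1 and 1, and the shares of all genes were 3.27%, 2.39% and 3.78%. The smallest p for cDC1 minus cDC2 was that of Rab7b, at -0.98 ± 0.33 (SE, adjusted p = 0.577). Rab30 followed at 1.80 ± 0.81 and Rab20 at 1.08 ± 0.60. For cDC2 minus pDC it was again Rab7b, at 1.02 ± 0.32 (adjusted p = 0.379), ahead of Rab5a (0.45 ± 0.25) and Rab31 (0.64 ± 0.40). For cDC1 minus pDC they were Rab24 (0.97 ± 0.46), Rab29 (0.83 ± 0.43) and Rab19 (0.72 ± 0.45). Without replicate 3 of WT pDC the Rab24 value was 0.54 and the Rab5a value 0.25.

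**Figure D4:**
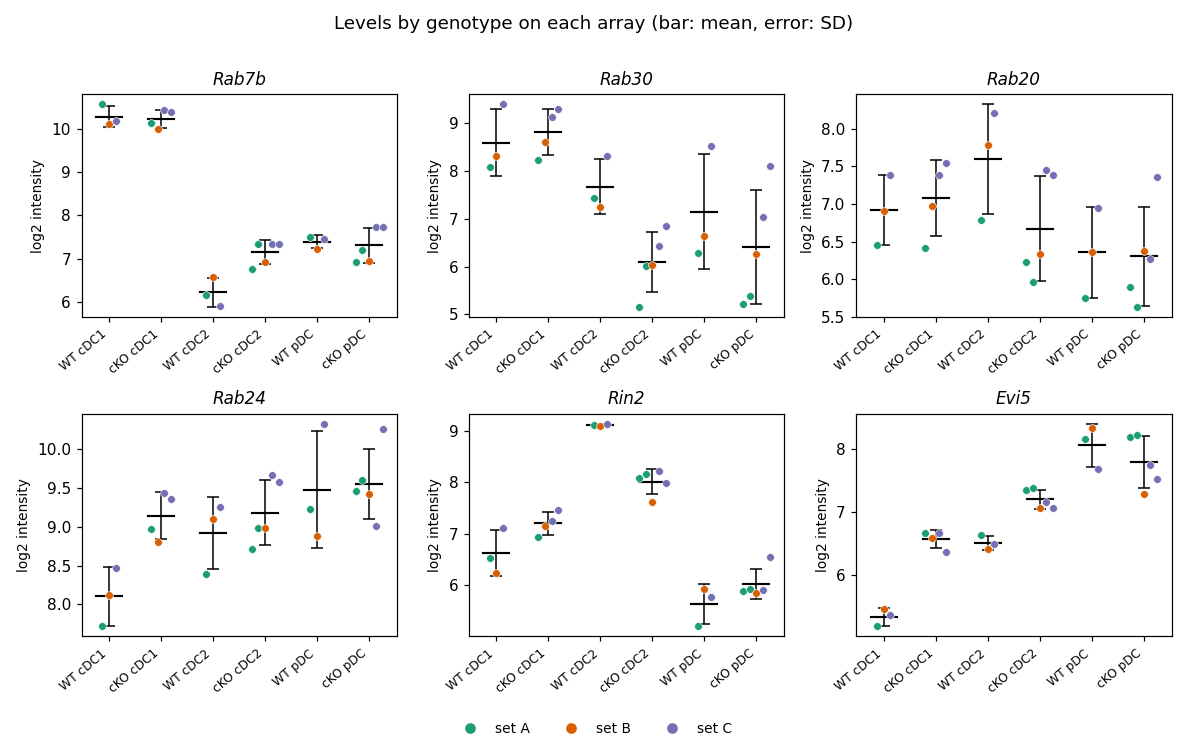
Log2 intensity (vertical axis) of Rab7b, Rab30, Rab20, Rab24, Rin2 and Evi5 on each of 23 arrays, by group; points are arrays coloured by set, bars are means and error bars are SDs. WT and cKO cDC2 do not overlap for Rab7b, Rab30, Rin2 and Evi5, and WT and cKO cDC1 do not overlap for Rab24 and Evi5.

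Genes that act on Rabs were taken from 5 lists. With Bcl6 deleted, 1 of 35 tested TBC-domain GAPs rose in cDC1, where 0.831% of all genes were called, and 2 of 29 exchange factors fell in cDC2, where 0.403% of all genes fell. Of the 7 prenylation and GDI genes, 45 effectors and 10 HOPS and CORVET tether subunits, which join membranes at endosomes and lysosomes, 0 were called in a cKO minus WT comparison. In pDC 0 genes of the 5 lists were called.

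Rin2, an exchange factor of Rab5, fell in cKO cDC2. Its log2 intensity was 9.10, 9.10 and 9.13 in WT cDC2 and 8.08, 8.16, 7.61, 8.22 and 7.98 in cKO cDC2. The groups did not overlap, with a difference of -1.10 ± 0.22 (SE, adjusted p = 0.0074). The call was lost in a fit of these 2 groups alone blocked by replicate (adjusted p = 0.0804). The effect differed from that in cDC1 by 1.67 ± 0.32 (adjusted p = 0.0173) and from that in pDC by -1.49 ± 0.32 (adjusted p = 0.0281). Each of these calls was lost with 5 of the single arrays left out (largest adjusted p = 0.0896 and 0.118). Both were also lost without the 3 high-Xist arrays and with like arrays averaged, and that against pDC with the compared arrays alone (largest adjusted p = 0.126 and 0.320).

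Dennd3, an exchange factor of Rab12, was at 8.19, 7.82 and 8.22 in WT cDC2 and 7.53, 7.29, 6.34, 6.52 and 6.90 in cKO cDC2. It fell by 1.16 ± 0.28 (SE, adjusted p = 0.0348) with no overlap, and the call was lost with 6 of the single arrays left out (largest adjusted p = 0.168) and under 6 alternatives (largest 0.283). Evi5, a TBC-domain protein, was at 5.19, 5.48 and 5.38 in WT cDC1 and 6.67, 6.59, 6.66 and 6.37 in cKO cDC1. The rise was 1.22 ± 0.22 (SE, adjusted p = 0.00233) with no overlap. The cDC2 markers also summed higher in cKO cDC1, and their part in this rise was not tested. In cDC2, Evi5 was at 6.63, 6.42 and 6.49 in WT and 7.35, 7.38, 7.06, 7.16 and 7.07 in cKO. Those groups did not overlap either, but the difference was not called. The cDC1 rise differed from the effect in pDC by 1.49 ± 0.30 (adjusted p = 0.0201). Both calls were lost under quantile normalization and under median centring of the arrays (the cDC1 rise at a largest adjusted p of 0.0698). The call against pDC was lost under 7 alternatives in all (largest adjusted p = 0.329) and with 6 of the single arrays left out (largest 0.0964).

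Regulators were also compared between WT cell types. For cDC1 against cDC2, 2 of 29 exchange factors were higher and 2 lower, 3 of 35 GAPs were lower and 1 of 45 effectors was lower, where 3.02% of all genes were higher and 3.04% lower. Rin2 (-2.48 ± 0.25, SE) and Dennd3 (-2.15 ± 0.31) were lower in cDC1, and Dennd2d (1.76 ± 0.32) and Dennd1b (1.34 ± 0.28), an exchange factor of Rab35, were higher. The GAPs were Tbc1d4 (-1.33 ± 0.36), which acts on Rab10, Evi5 (-1.17 ± 0.23) and Tbc1d30 (-0.98 ± 0.24), and the effector was Myo5a (-1.13 ± 0.33), a myosin motor. The calls of Tbc1d4 and Tbc1d30 were each lost with 3 of the single arrays left out (largest adjusted p = 0.154 and 0.0862) and that of Myo5a with 5 of 6 (0.193). Without the 3 high-Xist arrays, those of Evi5, Tbc1d30 and Myo5a were lost. The means of Dennd2d in WT cDC2, 4.46, and of Tbc1d30 in WT cDC1, 4.93, lie below the array medians. The sizes of these differences are therefore uncertain.

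Against pDC the conventional cells had much more Tbc1d9, Rab11fip1 and Lrrk2. Tbc1d9, a TBC-domain protein, had a log2 intensity of 10.67, 9.57 and 10.48 in WT cDC1, 10.28, 9.21 and 9.90 in WT cDC2 and 6.10, 5.63 and 6.15 in WT pDC. It exceeded its pDC level by 4.28 ± 0.32 in cDC1 and by 3.83 ± 0.32 in cDC2 (SE, adjusted p = 1.02e-09 and 8.97e-09). Rab11fip1, an effector of Rab11, did so by 3.96 ± 0.43 and 3.24 ± 0.43, and Lrrk2, a kinase that phosphorylates Rabs such as Rab8a and Rab10, by 3.57 ± 0.27 and 3.19 ± 0.27. The mean of Rab11fip1 in WT pDC, 4.77, lies below the array medians, so the size of its differences is uncertain. Lrrk2 was at 9.12, 8.99 and 9.26 in WT cDC1, 8.83, 8.50 and 8.92 in WT cDC2 and 5.00, 5.63 and 6.05 in WT pDC, with no overlap between conventional cells and pDC. Lower than in pDC were Rilpl1 (-2.38 ± 0.33 in cDC1 and -2.21 ± 0.33 in cDC2), which binds phosphorylated Rabs, and Rabgap1l (-1.96 ± 0.26 and -2.61 ± 0.26). The means of Rilpl1, 5.10 in WT cDC1 and 5.27 in WT cDC2, lie near the array medians, so the size of its differences is uncertain. Rabgap1l stood in the exchange factor list but encodes a TBC-domain GAP, and all list counts given here keep it among the exchange factors.

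Rin2 exceeded its pDC level by 3.48 ± 0.25 (SE) in cDC2, and Rin3, another Rab5-family exchange factor, by 2.06 ± 0.34 in cDC1 and 1.92 ± 0.34 in cDC2. Gdi2, which extracts inactive Rabs from membranes, was higher in cDC1 by 0.90 ± 0.25 and in cDC2 by 0.85 ± 0.25, and was the 1 gene called of 7 in its list in each comparison. Each Gdi2 call was lost with 3 of the single arrays left out (largest adjusted p = 0.0874 and 0.142), with array weights, with the compared arrays alone and without the high-Xist arrays. In all, cDC1 had 4 exchange factors above their pDC level and 2 below it, with 3 GAPs higher and 1 lower and 4 effectors higher and 2 lower, where 8.37% of all genes were higher and 5.14% lower. For cDC2 against pDC the counts were 4 and 1, 4 and 1, and 3 and 3, where 7.93% of all genes were higher and 4.80% lower. Rabgap1l, which encodes a GAP, is 1 of the 2 listed exchange factors lower in cDC1 and the 1 lower in cDC2. No tether subunit of 10 was called in a WT comparison, where 1, 0 and 1 had an unadjusted p below 0.05 in limma. All 6 B cell markers had lower means in WT cDC2 than in WT pDC. They summed to 780 to 1817 in WT pDC, 234 to 349 in WT cDC2 and 341 to 1000 in WT cDC1. In WT cDC1, Ms4a1 was higher than in WT pDC (7.52 and 6.64) and the other markers were lower. Their part in the differences from pDC was not tested. In bulk RNA, fewer cells of a type and less RNA per cell cannot be told apart.

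Of the 3 Rab genes with a second probe set, Rab5b gave the same sign from both in 12 of 12 comparisons, Rab2a in 11 and Rab11b in 7.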

How the data were processed

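The deposited intensity values hold 1 linear value per probe set and array, from 3.785 to 13980.7; per the submitters' processing notes the authors used Affymetrix Expression Console with RMA, whose versions are not given in the sources used here. Log2 was taken of all 23 arrays. Of 28853 probe sets, 21789 named 1 gene. A gene's probe set had to exceed its array's median on at least 3 arrays; with several, the one with the highest mean was kept. Group means were fitted on all arrays with limma 3.58.1 in R 4.3.3 (lmFit, eBayes), two-sided, with Benjamini-Hochberg adjustment over all 12157 genes, and tested on simulated data. Precision is limited by how few arrays a group has.

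The Rab genes, lists and tests were chosen with earlier results of these data known. The rule gave per-array values to Rabs called by genotype, to the 3 smallest p where fewer than 3 were called, and to the 5 largest WT changes each way; from each regulator list up to 3 called genes were named, some with per-array values. Rab38 and Rab10 against pDC, the calls in cKO cell type pairs, and Rab37 were named after their values were seen.

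Replicate numbers come from the labels. Same-numbered arrays deviated together, with correlations of 0.44 to 0.54 for cDC1 by genotype and 0.38 to 0.70 for the 3 WT comparisons. The others did not all exceed 0.1. In the comparisons that paired, same-numbered arrays also lay in the same array set, so replicate and set cannot be told apart. Alternatives were other normalizations, filters, blocks, array sets, weights, probe sets and arrays left out. Promoters come from RefSeq.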

Additional observations from a re-analysis of the deposited data

Results flagged for a closer look

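Of 126 groups of 4 or 5 arrays checked among the genes named, 5 held 1 array far from the others, and chance gives about 1 in 20. Rab8a had a log2 intensity of 8.31 in replicate 3 of cKO cDC2, the lowest, with the nearest array at 8.76. Rin2 was at 6.55 in replicate 5 of cKO pDC, the highest, with the nearest at 5.93. Myo5a was at 6.38 in replicate 4 of cKO cDC1, the highest, with the nearest at 6.18. In replicate 3 of cKO pDC, Mical1 was lowest at 6.76 (nearest 7.45) and Tbc1d14 was lowest at 5.27 (nearest 6.21).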

How the results depend on the processing

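No called Rab or regulator difference given above, and no Rab value given for its small p, changed sign under any alternative; the second probe sets of Rab2a and Rab11b could give the opposite sign, as stated. Counts of called Rabs follow, each with the share of all genes called under that setting. In cKO minus WT cDC2 (1 as reported) there were 2 with the replicate block (Rab20 and Rab30, lower; 2.20%), 4 with the array set as a term (4.60%), 3 with 2 array sets (2.83%), and 0 with a random replicate block (1.17%), with trend and robust settings (1.50%), with the compared arrays alone (1.08%), without the 3 high-Xist arrays (0.872%) and with like arrays averaged (0.765%). In cKO minus WT cDC1, array weights (1.99%) and the replicate block within the compared groups (1.22%) each gave 1 (Rab24) in place of 0. The genotype effect of cDC1 minus cDC2 gave 1 (Rab30) with the replicate block (0.568%) and within groups (0.461%), and that of cDC2 minus pDC gave 1 (Rab7b) with the random block (1.23%). WT cDC1 against cDC2 (4) gave 8 with the replicate block (9.53%), 16 with that block within the compared groups (16.3%), 7 with the random block (11.3%), 13 with array sets (15.5%), 8 with 2 sets (10.6%) and 1 without the high-Xist arrays (3.54%). WT cDC1 against pDC (9) gave 15 (19.7%), 20 (22.5%), 18 (22.6%), 21 (29.6%) and 16 (21.5%) under the first 5 of these, and 14 with median centring (16.8%). WT cDC2 against pDC (8) gave 13 with the random block (21.7%), 17 with sets (29.1%) and 13 with 2 sets (20.7%); quantile normalization gave 7 higher and 4 lower (17.9%). In cKO cells, cDC1 against cDC2 (7) gave 11 with sets (20.2%), 12 with array weights (19.6%) and 2 with like arrays averaged (5.03%), and 1 was lower, Rab38, under quantile normalization. cKO cDC1 against pDC (13) gave 23 with the random block (33.5%), 25 with sets (38.3%) and 24 with weights (45.8%). cKO cDC2 against pDC (8) gave 13 with sets (39.2%), 13 with the block within groups (34.1%) and 5 with averaging (11.7%). The causes were not tested; set and block terms take variation out of the residual, and averaging leaves fewer arrays. With 1 array left out, the counts ran from 0 to 1 for cKO minus WT cDC2, 1 to 4, 7 to 10 and 7 to 8 for the WT comparisons in the order above, and 4 to 8, 12 to 16 and 8 to 9 for the cKO ones; the other comparisons stayed at 0. Replicate numbers did not pair the arrays of the cKO comparisons, cKO minus WT cDC2 or cKO minus WT pDC. Intensities near or below the array medians limit what Rab4a, Rab32 and Rab38 show in pDC.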
